A study of Mus musculus with 8 samples.

Results

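Matrix metalloproteinases (MMPs) are zinc endopeptidases that cut the collagens and proteoglycans of the extracellular matrix, and the tissue inhibitors of metalloproteinases (TIMPs) are the secreted proteins that block them. The genes described here were 7 of the 43629 genes in the deposited count table: the proteases *Mmp2*, *Mmp3*, *Mmp13* and *Mmp14* and the inhibitors *Timp1*, *Timp2* and *Timp3*. They were chosen by name and each matched a single Ensembl gene. Cells were collected from frozen growth plates of 4 mice by laser microdissection. The labels name tibiae, and the methods name femora as well. Each mouse gave a resting zone and a proliferative zone library, which made 4 libraries per zone. All mice carried the Axin2CreERT2;R26RTdTomato alleles, were given 3 daily doses of tamoxifen from postnatal day 23 and were killed at postnatal day 30. Mice 1 and 2 were male, and mice 6 and 13 were female. The resting libraries came from TdTomato-labeled resting chondrocytes and the proliferative libraries from flat, unlabeled chondrocytes away from the secondary ossification center, so the label and the zone cannot be told apart. Cre was driven from the *Axin2* locus, a target of Wnt signaling, so the label marked cells that expressed *Axin2* at the time of tamoxifen and their descendants, and not the whole resting zone.

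In a growth plate, resting chondrocytes supply the columns of proliferating cells, which then enlarge, become hypertrophic and are replaced by bone. MMPs take part mainly at the end of this path, where the cartilage matrix is opened to vessels and osteoclasts, and beside the plate, where marrow and bone surfaces are remodeled. MMP-13 is the main collagenase of hypertrophic chondrocytes and osteoblasts and cuts type II collagen. MMP-3, or stromelysin 1, cuts proteoglycans and activates other proMMPs. MMP-14 is a membrane-bound collagenase that, together with TIMP-2, activates proMMP-2, a gelatinase. TIMP-3 differs from the other inhibitors in that it binds to the matrix and also blocks several ADAM and ADAMTS proteases.

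The zones were compared on the number of reads per gene. Resting libraries totaled 192882 to 462044 counts, and proliferative libraries 249284 to 631474 counts. Levels are given as CPM, the count scaled to the size of the library with TMM factors, and a count of 0 in a library allowed up to 3 counts, or 4.81 to 14.7 CPM depending on the library; this floor covers counting error only. A gene was called when edgeR's quasi-likelihood test gave an adjusted p below 0.01 and a log2 fold change beyond 1 in either direction. The zones differed broadly in markers of cell types. The summed level of 8 chondrocyte markers, among them *Col2a1* and *Sox9*, was 6610 to 16400 CPM in the resting libraries and 31100 to 56300 CPM in the proliferative libraries. Of 8 markers of resting chondrocytes, 5 were called higher in the resting zone. The study names several of these genes for the same samples, so this count is not independent evidence of direction. In bulk libraries of this kind, fewer cells of a type and less RNA per cell cannot be told apart.

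*Mmp13* and *Mmp3* lie in the same cluster of MMP genes on chromosome 9, with 162490 bp between the end of *Mmp13* and the start of *Mmp3* (GRCm38). The bases just before their transcription starts are shown because these proteases had the largest fold changes of the 7 genes and because their promoters share an AP-1 and a TATA match. The window of *Timp1* is shown for contrast. Each run holds the 250 bases before the RefSeq start (GRCm38.p6, plus strand): chr9:7272264-7272513 for *Mmp13*, chr9:7445572-7445821 for *Mmp3* and chrX:20869916-20870165 for *Timp1*. In them capitals mark matches to the letters TGANTCA, searched for AP-1. They also mark ACCACA, searched for RUNX factors. The TATA box was searched as TATAAA.
Mmp13: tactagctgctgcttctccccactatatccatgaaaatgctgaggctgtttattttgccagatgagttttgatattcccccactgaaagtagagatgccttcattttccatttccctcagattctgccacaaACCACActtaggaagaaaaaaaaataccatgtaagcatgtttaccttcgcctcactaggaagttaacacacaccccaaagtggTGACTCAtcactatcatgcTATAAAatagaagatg
Mmp3: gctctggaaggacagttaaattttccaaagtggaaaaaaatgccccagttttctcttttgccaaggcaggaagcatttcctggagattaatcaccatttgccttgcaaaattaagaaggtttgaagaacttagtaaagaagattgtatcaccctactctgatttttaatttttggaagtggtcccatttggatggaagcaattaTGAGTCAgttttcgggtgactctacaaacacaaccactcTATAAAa
Timp1: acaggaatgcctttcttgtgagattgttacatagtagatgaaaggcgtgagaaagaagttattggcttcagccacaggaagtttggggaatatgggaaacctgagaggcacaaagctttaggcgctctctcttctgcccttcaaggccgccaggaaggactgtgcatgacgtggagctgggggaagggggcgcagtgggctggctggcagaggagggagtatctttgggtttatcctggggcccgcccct

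The AP-1 match lay 29 to 35 bases before the *Mmp13* start and 40 to 46 bases before the *Mmp3* start. A TATA match lay 11 to 16 bases before the *Mmp13* start and 2 to 7 bases before the *Mmp3* start. *Mmp13* also had a RUNX match 113 to 118 bases before its start, and *Mmp14* had one at 109 to 114 bases. Searched on both strands, AP-1 letters were found in 6.75% of the 32851 mouse promoter windows of this length, TATA letters in 12.37% and RUNX letters in 14.05%. None of these 3 motifs was found in the windows of *Timp1*, *Timp2* and *Timp3*. The letters AGGAAG, searched for ETS factors, did not separate proteases from inhibitors: they were found in the windows of *Mmp3*, *Mmp13*, *Mmp14*, *Timp1* and *Timp3* and in 29.48% of all windows. The letters GGGCGG, searched for SP1, were found for *Mmp14* and all 3 TIMP genes and in 32.74% of all windows. A match is a run of letters and not a measured binding site.

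The proteases and inhibitors were first compared between the zones as a group. Mean levels of all 7 genes were higher in the resting zone, but the sizes ranged from a 25.3-fold difference for *Mmp13* to 1.20-fold for *Mmp2* on the fitted scale. Of the 6 genes that passed the filter on low counts, *Mmp13* alone was called higher in the resting zone, against 11.0% of the 3793 genes tested. None was called higher in the proliferative zone by edgeR or DESeq2, against 6.93% of the genes tested by edgeR. None had a fitted log2 fold change below 0, as 46.0% of the genes tested did. For *Mmp13*, *Mmp14* and *Timp2* every resting library was above every proliferative library, a pattern seen for 17.8% of the genes tested. The median log2 fold change of the 6 genes was 1.19, beside 0.08 over all genes tested. With upper quartile factors these medians were 0.97 and -0.14, a shift of -0.22 over all genes, and the split of all calls went from 419 resting and 263 proliferative genes to 339 and 359. A gene can pass the filter through the counts of a single zone, as *Mmp13*, *Mmp14*, *Timp1* and *Timp3* did through the resting zone. A higher resting value was thus favored for them beforehand. The shares, signs and medians of the 6 genes given here are therefore descriptions only. *Mmp3* was too low for the filter and was read from a second, wider fit over the 17492 genes with any count. In that fit *Mmp3* passed the threshold, as did 4.74% of the genes in the same direction, but its call was unstable, as described below. Adjusted p values of the wider fit cannot be compared with those of the main fit. For *Mmp13* the edgeR adjusted p was 2.17e-25 in the wider and 0.00109 in the main fit, and for *Mmp14* it was 0.198 and 0.0239.

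**Figure D1:**
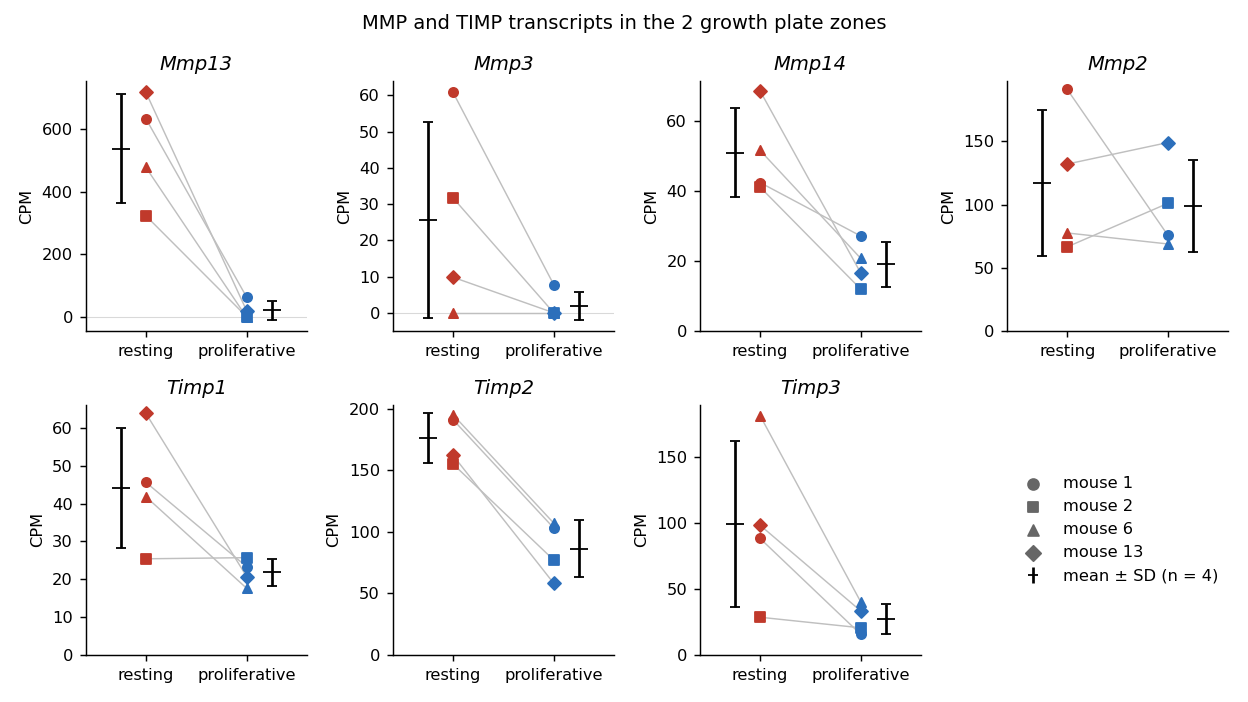
Levels of the 7 genes (y axis, CPM, a separate linear scale per gene) in the resting (red) and proliferative (blue) libraries, with lines joining the libraries of a mouse and black marks for the mean ± SD of 4 libraries. *Mmp13*, *Mmp14* and *Timp2* do not overlap between the zones, whereas the *Mmp2* values of both zones lie within 66.6 to 191 CPM.

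*Mmp13*, the collagenase, showed the largest difference. Its resting libraries held 632, 323, 477 and 716 CPM in mice 1, 2, 6 and 13, from 208, 102, 240 and 146 counts. The proliferative libraries of the same mice held 64.1, 1.71, 0 and 20.7 CPM, from 33, 1, 0 and 5 counts. Every resting library was therefore above every proliferative library, and the lowest resting value was that of mouse 2. The means were 537 ± 174 CPM and 21.6 ± 29.8 CPM (SD, n = 4), with a log2 fold change of 4.66 (SE 0.81, edgeR adjusted p = 0.00109). The exact two-sided permutation test gave p = 0.0286, the smallest value that 4 libraries against 4 can give. This test exchanges libraries freely between mice, as do those below, and exchanges within mice alone cannot give a two-sided exact p below 0.125 with 4 pairs. The proliferative library of mouse 1 held 33 of the 39 proliferative counts. Without it the log2 fold change was 6.69 (edgeR adjusted p = 6.48e-05). The call was lost in the male mice alone, at a log2 fold change of 3.67 (edgeR adjusted p = 0.0389).

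The makeup of the protease counts rests on the same *Mmp13* counts, so it describes this difference again and is not a separate result. Of the counts on the 4 MMP genes, *Mmp13* held between 68.2% (mouse 1, 95% exact binomial interval 62.6% to 73.4%) and 78.7% (mouse 6, 73.7% to 83.1%) in the resting zone. In the proliferative zone it held 36.7% in mouse 1 (26.8% to 47.5%), 11.1% in mouse 13 (3.71% to 24.1%) and 1.49% in mouse 2 (0.0378% to 8.04%). It held 0 of 56 counts in mouse 6, an interval that reaches 6.38%. The resting shares were thus above the proliferative shares in all 4 mice, and the intervals cover counting error only. Among the inhibitors, *Timp2* held 46.7% to 74.2% of the TIMP counts in resting libraries and 51.9% to 72.6% in proliferative libraries, so that these ranges overlapped.

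*Mmp3*, the stromelysin, was close to the limit of detection. Its counts in mice 1, 2, 6 and 13 were 20, 10, 0 and 2 in the resting zone, or 60.8, 31.7, 0 and 9.81 CPM. In the proliferative zone they were 4, 0, 0 and 0, or 7.77 CPM in mouse 1 and 0 in the others. The resting value of the male mice was thus above all other libraries, and the zones overlapped because mouse 6 had no count in either. The means were 25.6 ± 26.9 CPM and 1.94 ± 3.88 CPM (SD, n = 4), with a log2 fold change of 3.19 (SE 0.94, edgeR adjusted p = 0.00981 in the wider fit). The exact two-sided permutation test gave p = 0.143. With the mouse as a block the log2 fold change was 3.49 and the call was lost (edgeR adjusted p = 0.0224). It was also lost in 5 of 8 fits that left out a single library: those without resting mouse 1 (log2 fold change 2.31, edgeR adjusted p = 0.249) or mouse 2, and those without proliferative mouse 2, 6 or 13. Without proliferative mouse 1, which held all 4 proliferative counts, the log2 fold change rose to 6.25 (edgeR adjusted p = 0.000513). At this depth a difference in *Mmp3* was not established.

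*Mmp14*, the membrane-bound collagenase, was higher in every resting library than in any proliferative library but was not called. The resting values were 42.5, 41.2, 51.7 and 68.7 CPM in mice 1, 2, 6 and 13, and the proliferative values 27.2, 12, 20.8 and 16.6 CPM. The smallest gap was that of mouse 1, which had the highest proliferative value. Means were 51.0 ± 12.7 CPM and 19.1 ± 6.46 CPM (SD, n = 4). The log2 fold change was 1.37 (SE 0.42, edgeR adjusted p = 0.0239; exact two-sided permutation p = 0.0286). These values rest on 67 and 38 counts.

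*Mmp2*, the gelatinase that MMP-14 and TIMP-2 activate, did not differ detectably between the zones. Its resting libraries held 191, 66.6, 77.6 and 132 CPM and its proliferative libraries 75.7, 101, 68.9 and 149 CPM in mice 1, 2, 6 and 13. The zones overlapped fully, and the resting value was higher in 2 of 4 mice. Means were 117 ± 57.4 CPM and 98.7 ± 36.4 CPM (SD, n = 4). The log2 fold change was 0.26 (SE 0.40, edgeR adjusted p = 0.661; exact two-sided permutation p = 0.657), with a range of 2 SE from -0.54 to 1.06. Its sign turned without mouse 1, to -0.23.

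*Timp2*, among the inhibitors, was not called but did not overlap between the zones. Its product binds proMMP-2 and in this way can bring the proenzyme to MMP-14. The resting values were 191, 155, 195 and 162 CPM in mice 1, 2, 6 and 13, and the proliferative values 103, 77.0, 107 and 58.1 CPM. All resting libraries were above all proliferative libraries. Means were 176 ± 20.2 CPM and 86.3 ± 23.1 CPM (SD, n = 4). The log2 fold change of 1.01 (SE 0.28) did not pass the threshold (edgeR adjusted p = 0.0162; exact two-sided permutation p = 0.0286).

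*Timp3*, the matrix-bound inhibitor, had the largest fitted difference among the TIMPs and was not called. Resting libraries held 88.1, 28.5, 181 and 98.1 CPM in mice 1, 2, 6 and 13, and proliferative libraries 15.5, 20.5, 40.0 and 33.2 CPM. The resting value was higher in 4 of 4 mice, but the zones overlapped, since the resting library of mouse 2 was below the proliferative libraries of mice 6 and 13. Means were 99.0 ± 62.8 CPM and 27.3 ± 11.3 CPM (SD, n = 4). The log2 fold change was 1.88 (SE 0.52, edgeR adjusted p = 0.0161; exact two-sided permutation p = 0.0857). Without the resting library of mouse 2 the log2 fold change was 2.17 and passed the threshold (edgeR adjusted p = 0.00331), as it did with DESeq2 (1.87, adjusted p = 0.00442). The resting library of mouse 6 held 91 of the 149 resting counts, and without it the log2 fold change was 1.35 (edgeR adjusted p = 0.0602).

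*Timp1*, a secreted inhibitor of most soluble MMPs, held 45.6, 25.4, 41.8 and 63.8 CPM in the resting libraries of mice 1, 2, 6 and 13. The proliferative libraries held 23.3, 25.7, 17.6 and 20.7 CPM. The resting value was higher in 3 of 4 mice, and the overlap came from mouse 2, whose values in both zones were nearly equal. Means were 44.1 ± 15.8 CPM and 21.8 ± 3.46 CPM (SD, n = 4). The log2 fold change was 0.98 (SE 0.41, edgeR adjusted p = 0.0920; exact two-sided permutation p = 0.0571).

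Because both libraries of a pair came from the same animal, the difference was also read within each animal, as log2 CPM with a prior count of 2. For *Mmp13* these differences were 3.21, 5.65, 6.64 and 4.82 in mice 1, 2, 6 and 13. *Mmp14* gave 0.57, 1.45, 1.14 and 1.78, and *Timp2* gave 0.87, 0.97, 0.83 and 1.41. *Timp2* varied least between animals (SD 0.27). The *Mmp13* values of mice 2 and 6 stand over 1 and 0 proliferative counts, so their size depends on the prior count, but the smallest *Mmp13* difference exceeded the largest difference of the other genes that passed the filter. For *Timp3* the range was 0.39 to 2.19, for *Timp1* -0.02 to 1.42, for *Mmp2* -0.57 to 1.28 and for *Mmp3* 0 to 2.92. Mouse 1 had the smallest difference for *Mmp13* and *Mmp14* and the largest for *Mmp2* and *Timp3*.

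**Figure D2:**
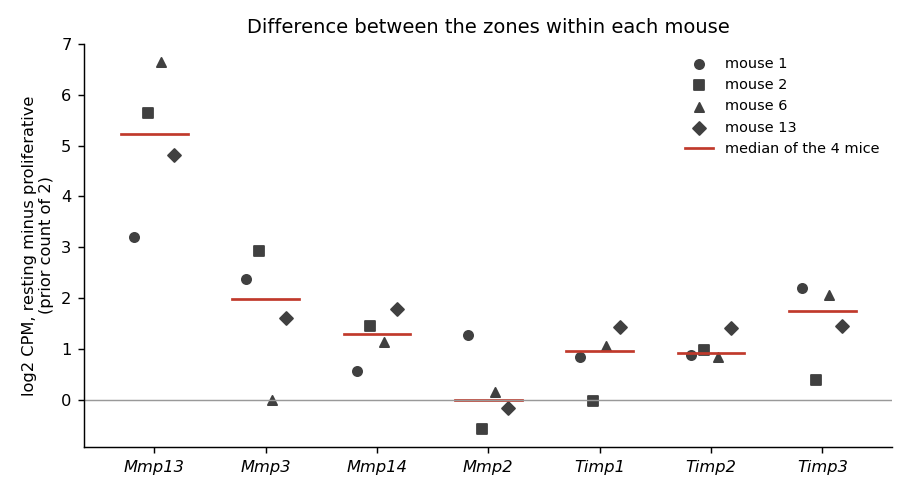
Difference in log2 CPM between the resting and the proliferative library of each mouse (y axis, prior count of 2) for the 7 genes (x axis), with red lines for the median of the 4 mice. The *Mmp13* differences lie between 3.21 and 6.64, with the upper values set in part by the prior count, while those of *Mmp2* lie on both sides of 0.

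Whether the zone difference itself differed between the sexes was tested as an interaction. No member passed an adjusted p below 0.05, and only 0.0264% of the genes tested did, which is 1 gene of 3793, with 250 genes below an unadjusted p of 0.05. The largest value was that of *Mmp13*, whose log2 difference was greater by 2.55 in females than in males (SE 1.62, edgeR adjusted p = 0.836). The log2 interaction was 0.90 for *Timp1*, 0.52 for *Mmp14*, 0.25 for *Timp3*, 0.12 for *Timp2* and -0.59 for *Mmp2*, each with an SE of 0.60 or more, and 0.27 (SE 0.44) for *Mmp3* in the wider fit. The sign for *Mmp3* is not reliable, since its mean difference within mice was 2.65 in males and 0.80 in females. These values rest on 2 mice of each sex.

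To order the genes by level, CPM was divided by the length of exon, giving CPM per kb. In the resting zone *Mmp13* came first with 201 ± 64.9 CPM per kb (SD, n = 4). *Timp1* followed with 49.7 ± 17.8, *Timp2* with 45.1 ± 5.18 and *Mmp2* with 34.7 ± 17.0 CPM per kb. The lowest were *Mmp3* with 14.2 ± 15, *Timp3* with 12.2 ± 7.71 and *Mmp14* with 8.56 ± 2.13 CPM per kb. Only *Mmp13* was separated from its neighbour, with 121 CPM per kb in its lowest library against 71.8 in the highest *Timp1* library. All later neighbours in this order overlapped.

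In the proliferative zone *Mmp2* came first with 29.3 ± 10.8 CPM per kb, ahead of *Timp1* with 24.6 ± 3.90 and *Timp2* with 22.2 ± 5.93 (SD, n = 4). *Mmp13* came next with 8.09 ± 11.2 CPM per kb, of which mouse 1 gave 24.0 and mouse 6 gave 0. *Timp3* with 3.36 ± 1.38, *Mmp14* with 3.21 ± 1.08 and *Mmp3* with 1.08 ± 2.16 CPM per kb were lowest. All neighbours in this order overlapped. Before sequencing the RNA went through repeated in vitro transcription, which favors the 3′ ends of transcripts, so levels per kb are approximate. Before division by length, the resting means after *Mmp13* were 176 CPM for *Timp2*, 117 for *Mmp2*, 99.0 for *Timp3*, 51.0 for *Mmp14*, 44.1 for *Timp1* and 25.6 for *Mmp3*. The place of *Timp1* next to *Mmp13* in the resting zone thus came from its short exon length of 888 bp.

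**Figure D3:**
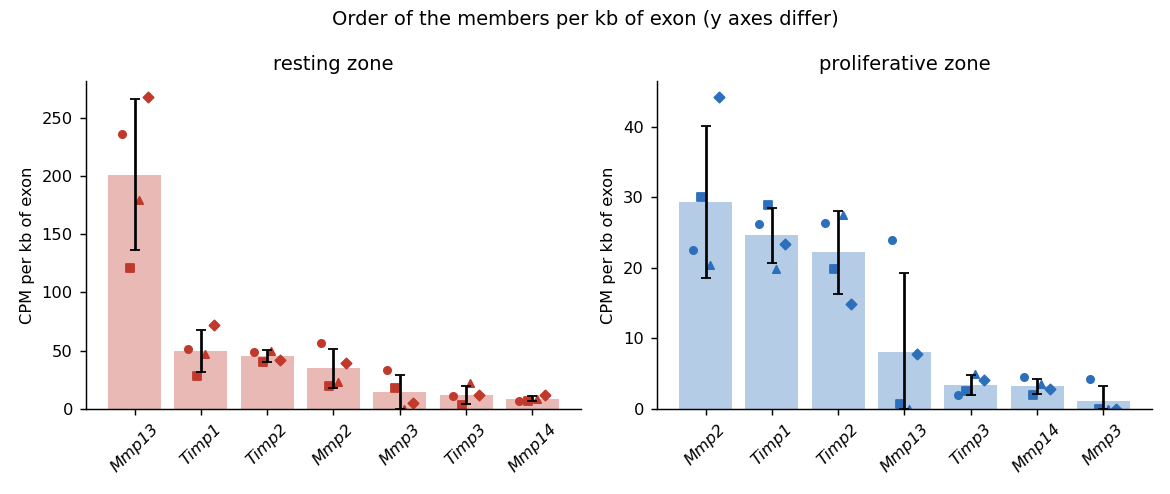
Mean level per kb of exon (bars, y axes that start at 0 and differ between the panels) in the resting (left) and proliferative (right) zone, with points for the 4 libraries and error bars for 1 SD, cut off at 0. *Mmp13* leads in the resting zone at 201 CPM per kb and falls behind *Mmp2*, *Timp1* and *Timp2* in the proliferative zone at 8.09 CPM per kb.

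Opposite-strand neighbours bear on the TIMP values. *Timp1* and *Timp3* sit inside synapsin genes, which encode neuronal vesicle proteins and run in the other direction, and *Timp2* does not. *Timp3* (chr10:86300372-86349506, plus strand) was the only member whose exons overlapped exons of an opposite-strand gene in the counted annotation. Its partner *Syn3* shared 1733 bp with the last exon block of *Timp3*, at chr10:86347774-86349506. *Timp1* lies within *Syn1* without shared exon bases.

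The counts on *Syn3* were much higher than those on *Timp3*. *Syn3* held 1562, 1179, 5808 and 988 counts in the resting libraries of mice 1, 2, 6 and 13, where *Timp3* held 29, 9, 91 and 20. In the proliferative libraries *Syn3* held 1363, 1900, 2006 and 632 counts and *Timp3* held 8, 12, 25 and 8. *Timp3* thus made up 0.584% to 1.98% of the counts of the pair. *Syn3* averaged 6220 ± 3590 CPM in resting and 2930 ± 347 CPM in proliferative libraries (SD, n = 4), without overlap. Its log2 fold change was 1.08 (SE 0.32, edgeR adjusted p = 0.0229), and 0.58 without the resting library of mouse 6 (edgeR adjusted p = 0.0377). With the counts of both genes added, the log2 fold change was 1.09 (SE 0.33, edgeR adjusted p = 0.0221), against 1.88 for *Timp3* alone.

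Other genes of neurons were read beside *Syn3*, and 6 of these 12 had no count in any library: *Syn2*, *Syt1*, *Stmn2*, *Nefl*, *Nefm* and *Elavl4*. Their summed level was 0 to 36.9 CPM. In the female libraries *Tsix* likewise held 91.4% to 94.8% of the counts of *Tsix* and *Xist*, which lie on opposite strands. The strand setting of the counting is not given in the sources used here, so reads from *Timp3* and *Syn3* cannot be told apart, and the *Timp3* level is uncertain. Which strand the counts of the other members came from was not tested either, so the CPM, shares and order per kb given here for all 7 genes are those of the counted reads, which may lie on either strand of the gene.

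The other genes of matrix proteolysis were taken from lists by family. Of 19 other MMP genes 12 had a count and 5 passed the filter, of which *Mmp9* and *Mmp28* were called higher in the resting zone, and none was called in the other direction. *Mmp9*, gelatinase B of osteoclasts and neutrophils, had 168, 71, 205 and 136 counts in the resting libraries of mice 1, 2, 6 and 13 and 9, 3, 0 and 5 in the proliferative libraries. Its means were 453 ± 186 CPM and 10.8 ± 9.87 CPM (SD, n = 4), with a log2 fold change of 5.56 (SE 0.64, edgeR adjusted p = 0.000135). *Mmp28*, or epilysin, had 163 counts in all resting and 2 in all proliferative libraries, a ratio of 119 with a counting interval of 32.3 to 987 (edgeR adjusted p = 0.000123). Its exons overlap those of *1700020L24Rik* on the other strand, which makes its level uncertain. *Mmp8*, the collagenase of neutrophils, had 99 and 30 counts and was not called (log2 fold change 2.34, SE 0.86, edgeR adjusted p = 0.0570).

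In the cluster on chromosome 9, 6 of 10 MMP genes had no count in any library, among them *Mmp10* and *Mmp12*. The cluster's counts fell on *Mmp13*, *Mmp3* and *Mmp8*, besides 1 count on *Mmp27*. Of the other inhibitors, *Timp4* had 1 count in all. *Reck*, a membrane-anchored MMP inhibitor, held 16.1 ± 13.4 CPM in resting and 4.88 ± 4.15 CPM in proliferative libraries (SD, n = 4; edgeR adjusted p = 0.359 in the wider fit). *Timp1*, *Timp2* and *Timp3* were thus the inhibitors of this kind that passed the filter.

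Among 10 ADAM genes 2 passed the filter, and *Adam10*, a sheddase of membrane proteins, was called higher in the resting zone (log2 fold change 2.17, SE 0.41, edgeR adjusted p = 0.00182). None of 19 ADAMTS genes passed the filter. In the wider fit, *Adamts2*, a procollagen N-proteinase, passed the threshold (log2 fold change 3.71, edgeR adjusted p = 9.79e-05), with 56 counts in the resting and 5 in the proliferative zone. *Adamts9*, an aggrecanase and versicanase, also passed it (log2 fold change 2.81, edgeR adjusted p = 0.00205), although its exons overlap opposite-strand transcripts. No gene of these families was called higher in the proliferative zone. The nearest was *Adamts3*, another procollagen N-proteinase, with 1 count in the resting and 25 in the proliferative libraries, a ratio of 17.2 with a counting interval of 2.81 to 706 (edgeR adjusted p = 0.0253 in the wider fit).

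Of the 8 genes of the plasminogen system 1 passed the filter, *Serpine2*, an inhibitor of plasminogen activators and thrombin, and it was called higher in the resting zone (log2 fold change 4.31, SE 0.83, edgeR adjusted p = 0.00201). Of 7 partners that process, bind or clear MMPs, 5 passed the filter and *Cd44*, a hyaluronan receptor that can hold MMP-9 and MMP-14 at the cell surface, was called (log2 fold change 4.74, SE 0.64, edgeR adjusted p = 0.000306). Of the partners not called, the proMMP convertase *Furin* gave a log2 fold change of 0.70 (edgeR adjusted p = 0.298). *Bsg*, an inducer of MMPs, was higher in every proliferative library (117 ± 30.7 against 60.1 ± 25.6 CPM, SD, n = 4; log2 fold change -0.89, edgeR adjusted p = 0.0887). Of 8 lysosomal and serine matrix proteases 6 passed the filter, and *Ctsk*, *Ctsb* and *Ctsd* were called higher in the resting zone. *Ctsk*, the collagen-degrading cathepsin of osteoclasts, averaged 1220 ± 467 CPM in resting and 82.8 ± 116 CPM in proliferative libraries (SD, n = 4), with a log2 fold change of 3.85 (SE 0.75, edgeR adjusted p = 0.00210). The log2 fold change was 2.84 (SE 0.41, edgeR adjusted p = 0.000394) for *Ctsb* and 1.75 (SE 0.31, edgeR adjusted p = 0.00127) for *Ctsd*, and exons of *Ctsb* overlap those of *Fdft1* on the other strand. *Ctss*, a cathepsin of antigen-presenting cells, passed the threshold in the wider fit (log2 fold change 3.88, edgeR adjusted p = 2.49e-08). That p cannot be ranked against those of the main fit, and DESeq2 gave *Ctss* an adjusted p of 0.00063. Some of these calls were lost when a single library was left out. This was so for *Adam10* without proliferative mouse 2, 6 or 13 (edgeR adjusted p up to 0.0124), *Serpine2* without proliferative mouse 13 (0.0121) and *Ctsk* without proliferative mouse 2 or 13 (up to 0.0121). *Adamts9* lost its call without resting mouse 1 or proliferative mouse 2 or 13 (edgeR adjusted p up to 0.0161). As for *Mmp13*, log2 fold changes were larger without proliferative mouse 1, at 8.49 for *Mmp28*, 8.02 for *Ctss*, 6.86 for *Serpine2*, 6.09 for *Cd44*, 6.07 for *Mmp9*, 5.57 for *Ctsk*, 5.30 for *Adamts2* and 3.34 for *Ctsb*. In the male mice alone *Adam10*, *Adamts2*, *Adamts9*, *Serpine2*, *Cd44*, *Ctsk*, *Ctsb* and *Ctsd* lost their calls (edgeR adjusted p from 0.0150 to 0.0722), while *Mmp9*, *Mmp28* and *Ctss* kept theirs. In the female mice alone *Adam10*, *Adamts9* and *Ctsd* lost their calls (edgeR adjusted p = 0.0512, 0.0936 and 0.0563).

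**Figure D4:**
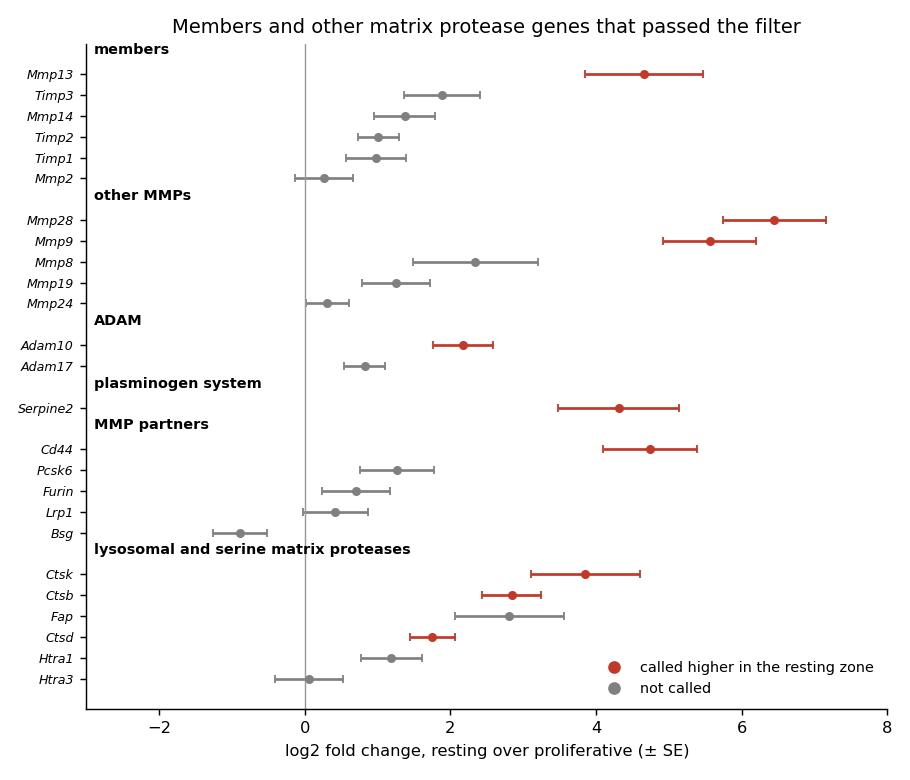
Log2 fold change, resting over proliferative (x axis, ± SE), of the 6 members and the other matrix protease genes that passed the filter, in red where called higher in the resting zone and in gray where not called. *Mmp13* at 4.66 lies in the range of *Mmp9*, *Cd44*, *Serpine2* and *Ctsk*, whereas the other members lie between 0.26 and 1.88.

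Most marker lists of cells outside the cartilage had higher sums in the resting zone. Of 8 osteoclast markers 7 were called higher in the resting zone over both fits, among them *Acp5*, and their summed level was 777 to 2620 CPM in the resting libraries against 0 to 190 CPM in the proliferative libraries. Of 8 markers of osteoblasts and osteocytes 4 were called, *Bglap*, *Bglap2*, *Col1a1* and *Col1a2*, with sums of 9600 to 37400 CPM and 620 to 4010 CPM. These sums were mostly collagen counts, and *Sp7*, the osteoblast transcription factor in that list, was lower in every resting library (15 ± 6.67 against 38.5 ± 10.3 CPM, SD, n = 4; log2 fold change -1.30, edgeR adjusted p = 0.0471) and was not called. Of 8 neutrophil markers 7 were called, with sums of 3050 to 3920 CPM against 0 to 551 CPM. For 8 macrophage markers these ranges were 957 to 1080 CPM and 193 to 483 CPM with 6 called, and for 8 stromal markers 479 to 817 CPM and 36.8 to 66.8 CPM with 4 called. For 6 erythroid markers they were 1670 to 11700 CPM and 0 to 1680 CPM with 3 called, and for 6 endothelial markers 109 to 234 CPM and 0 to 12.4 CPM with 4 called. Most of the proliferative macrophage sum came from *Csf1r* (355, 183, 306 and 377 CPM in mice 1, 2, 6 and 13). *Csf1r* was not called (log2 fold change 0.28, edgeR adjusted p = 0.471), and its exons overlap those of *Hmgxb3* on the other strand. The part of all these cell types in the *Mmp13*, *Mmp3*, *Mmp14* and TIMP values was not tested.

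Some markers of hypertrophic chondrocytes lay in the other direction from *Mmp13*. Of 8 markers of prehypertrophic and hypertrophic cells, 3 were called higher in the proliferative zone and none in the resting zone, and their summed level was 273 to 852 CPM in the resting and 1560 to 2310 CPM in the proliferative libraries. *Col10a1*, the collagen of hypertrophic cartilage, had 0, 3, 11 and 0 counts in the resting libraries of mice 1, 2, 6 and 13 and 120, 208, 39 and 25 in the proliferative libraries. *Ihh* had no count in the resting zone. The exceptions were *Alpl*, with a log2 fold change of 0.71, and *Runx2* (-0.25) and *Runx3* (-0.40), whose zones overlapped, and none of these was called. Within the proliferative zone, *Mmp13* levels were 64.1, 1.71, 0 and 20.7 CPM in mice 1, 2, 6 and 13. Osteoclast sums were 190, 30.8, 0 and 41.5 CPM in the same order, and osteoblast and osteocyte sums were 4010, 983, 620 and 1170 CPM. The order of the 4 libraries was the same for *Mmp13* and both sums in this zone. In the resting zone *Mmp13* and the osteoclast sum also shared an order (mice 13, 1, 6 and 2), which *Timp1* had too. The osteoblast and osteocyte sum had another order there. Over the 7 genes, 11 marker lists and both zones, 12 of 154 such orders matched, for other genes and lists too. *Mmp13* with the osteoclast sum was the only pair that matched in both zones, and what these orders mean for *Mmp13* was not tested. Proliferative mouse 1 further had the highest macrophage (483 CPM), neutrophil (551 CPM), erythroid (1680 CPM) and resting chondrocyte (54.4 CPM) sums of its zone. Its stromal sum (60.2 CPM) was below that of mouse 2 (66.8 CPM), and its endothelial sum (7.77 CPM) was below that of mouse 13 (12.4 CPM).

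**Figure D5:**
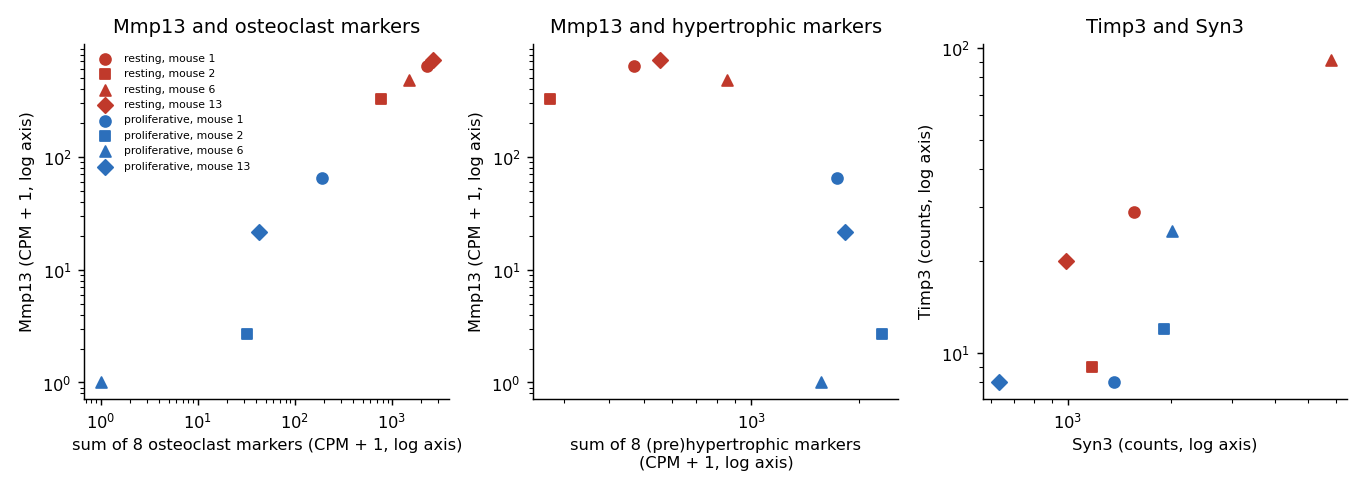
Each point is a library (red, resting; blue, proliferative; the symbol gives the mouse), with *Mmp13* against the summed osteoclast markers (left) and the summed prehypertrophic and hypertrophic markers (middle), all as CPM + 1 on log axes, and *Timp3* against *Syn3* counts on log axes (right). *Mmp13* and the osteoclast sum are higher in every resting than in every proliferative library. The same holds for the neutrophil, macrophage, stromal, endothelial and osteoblast sums, which are not plotted. The hypertrophic sum is higher in the proliferative libraries, and *Syn3* exceeds *Timp3* by at least 49.4 times in every library.

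The genes with the most similar pattern over the 8 libraries were found by Pearson correlation of log2 CPM, values that also carry the difference between the zones. For *Mmp13* they were *S100a4* (r = 0.993), *Flna* (r = 0.993) and *Cp* (r = 0.988). For *Mmp14* they were *Stk11* (r = 0.981), *Igf1* (r = 0.969) and *Vsir* (r = 0.967), and for *Timp2* they were *Pik3r1* (r = 0.996), *Glul* (r = 0.986) and *Ifi27* (r = 0.976). The nearest to *Timp1* was *Ddx19a* (r = 0.977) and the nearest to *Timp3* was *A230087F16Rik* (r = 0.942). *Mmp2*, which did not follow the zones, was nearest to *Gm14232* (r = 0.952). All of these values come from the same 8 libraries and describe the pattern only.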

How the data were processed

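RNA from laser-microdissected zones was amplified, sequenced and, by the submitters' processing notes, aligned to GRCm38 with HISAT2 2.1.0 and counted with HTSeq 0.11.2. The authors deposited whole-number counts per gene without normalization, and these deposited counts were the only values used. Another deposited table has the authors' comparison of the zones and 8 scaled columns, 1 per library; only its gene symbols were used. Groups, mice and sexes came from the labels.

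Counts were tested with edgeR 4.0.16 (R 4.3.3; TMM factors 0.934 to 1.088; filter by zone with a minimum count of 10 and minimum total of 15; common biological coefficient of variation 0.38; quasi-likelihood test with zone as the only term; Benjamini-Hochberg adjustment over all genes tested). *Mmp3* came from the same fit over all genes with a count. Exact permutation tests compared mean CPM. The replicates were separate mice. By the labels, a shared number means a shared animal, which pairs the libraries. With the zone means subtracted, their correlations over genes were 0.195, 0.0104, 0.144 and 0.0635 in mice 1, 2, 6 and 13. The means for other mice were -0.0729 to -0.00772. The subtraction ties these means to the values of the own mouse, so they are not separate evidence of the pairing. Alternatives were edgeR's likelihood ratio test, DESeq2 1.42.0, other scaling factors and filters, the mouse as a block, single sexes, each library left out, and, added after the data were seen, each of mice 1 and 6 left out and *Syn3* counts added to *Timp3*.

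Exon lengths and overlaps came from GENCODE M21 (GRCm38), which is later than the annotation of the counts, and promoter windows from RefSeq (GRCm38.p6; 6 of 7 genes matched). Python 3.11.15 and matplotlib 3.10.9 drew the plots. The members and lists were chosen with earlier results of these data known. Named were all members, up to 6 called genes per list by lowest p, *Mmp8*, *Mmp9*, *Mmp10*, *Mmp12*, *Timp4* and *Reck*, overlapping genes, and from the 3 genes most like each member that passed the filter all 3 or the nearest. *Mmp19*, *Mmp24*, *Adam17* and other uncalled list genes were counted only. *Mmp27*, *Adamts3*, *Furin*, *Bsg* and single markers were named after their values were seen, and the neuron genes were chosen after the *Syn3* counts were seen.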

Additional observations from a re-analysis of the deposited data

Results flagged for a closer look

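The proliferative *Mmp3* level of mouse 1, 7.77 CPM from 4 counts, stood apart from the other 3 libraries of its zone, which had no count. Beside 3 values of 0 any count would. A count of 0 allows up to 5.14 CPM in mouse 2, 4.81 CPM in mouse 6 and 12.4 CPM in mouse 13, so 7.77 CPM is above the first 2 of these limits and below that of mouse 13. Of 14 sets of 4 libraries examined (7 genes in each zone) this was the 1 that stood apart, and chance gives about 1 in 20. The same library had the highest *Mmp13* level (64.1 CPM) and the highest osteoclast (190 CPM), osteoblast and osteocyte (4010 CPM), macrophage (483 CPM), neutrophil (551 CPM), erythroid (1680 CPM) and resting chondrocyte (54.4 CPM) sums of its zone, but not the highest stromal (60.2 CPM) or endothelial (7.77 CPM) sum.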

How the results depend on the processing

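*Timp1* kept its direction and stayed below the threshold in all alternatives, and *Mmp13* stayed above it except in the male mice alone (3.67). Leaving out 1 library gave 4.07 to 6.69 for *Mmp13*, 1.12 to 1.52 for *Mmp14*, 0.66 to 1.15 for *Timp1*, 0.75 to 1.05 for *Timp2*, 1.35 to 2.17 for *Timp3*, 2.31 to 6.25 for *Mmp3* and -0.11 to 0.44 for *Mmp2* (log2 fold changes). *Mmp2* turned to -0.08 in the female mice alone and -0.23 without mouse 1. *Mmp3* was not called with the likelihood ratio test (3.18), DESeq2 (3.58), upper quartile factors (3.03), in males (3.31) or females (3.52) alone or without mouse 1 (5.41). With the replicate block it was 3.49 by either test (edgeR adjusted p = 0.0224 and 0.0105), and the block by the quasi-likelihood test changed no other member's call. The likelihood ratio test added *Mmp14* (1.36), *Timp2* (1.00) and *Timp3* (1.87), and with the block *Timp2* (1.03) and *Timp3* (1.73). *Timp3* was also called by DESeq2 (1.87), over all genes with a count (1.67) and without resting mouse 2 (2.17).

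The number of members called higher in the resting zone was 2, *Mmp13* in the main fit and *Mmp3* in the wider fit. It was 4 with the likelihood ratio test, which called 566 of the 3793 genes tested in this direction. At an adjusted p of 0.05 it was 5, beside 635 genes. It was 1 with upper quartile factors (339 genes), with the replicate block (385 genes) and without mouse 1, and 1 to 2 with 1 library left out. It was 0 with at least 10 counts in every library, a filter that only *Mmp2* and *Timp2* passed. The number of all genes called higher in the resting zone was 419 of 3793 in the main fit (11.0%), which left *Mmp3* out. It was 829 of 17492 over all genes with a count (4.74%), 125 with the stricter filter and 635 at an adjusted p of 0.05. With 1 library left out it was 255 to 472 (255 without proliferative mouse 2). For the proliferative zone, 263 became 468, 137 and 427 in the same order, 396 with the block and likelihood ratio test, and 183 to 349 with 1 library left out. Upper quartile factors gave 339 resting and 359 proliferative calls, the likelihood ratio test 566 and 386, and the block 385 and 230. The causes were not tested, other than that fewer genes or libraries entered the smaller fits. Depth limits the proliferative values of *Mmp3* and *Mmp13*, which rest on 4 and 39 counts.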
